A study of Mus musculus with 2 samples.

Results

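*Sprr1a*, *Sprr1b*, *Sprr3* and *Sprr4* encode the small proline-rich proteins outside the *Sprr2* family, and their RNA was compared between the skin of newborn *Pnpla1*+/+ and *Pnpla1*-/- mice. They were found by their symbols among the probes other than controls, which gave 4 of the 30133 genes on the array, each with 1 probe and 1 spot. Acylceramides, lipids on which the barrier of the skin depends, are made with the help of the enzyme PNPLA1, which keratinocytes express once they differentiate. The *Pnpla1*+/+ group was wild type littermates and the *Pnpla1*-/- group was homozygous null pups. Both were on the C57BL/6N strain background and were taken at postnatal day 0 (P0). The null mice were global knockouts made from a targeted knockout-first allele. The study states that its LacZ and Neo cassettes were removed with flippase and that heterozygous mice were intercrossed. Equal amounts of skin RNA of 6 animals were pooled for each genotype and hybridized in 1 colour (Cy3) to 1 Agilent mouse array per genotype. The sample labels name the tissue skin, whereas the design text also speaks of epidermis. Fibroblast, muscle and fat markers, given below, were bright in both pools.

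With 1 array per genotype there was no replicate. No test between genotypes, p-value or spread between mice can be given, so the values describe these 2 pools. Of the 43020 spots other than controls, 71.7% passed the scanner's well-above-background flag on the *Pnpla1*+/+ array and 73.3% on the *Pnpla1*-/- array, and none was saturated. The targeted gene, *Pnpla1*, read 579 in the *Pnpla1*+/+ pool and 114 in the *Pnpla1*-/- pool, which is -2.07 on the log2 scale, and its probe still passed that flag in the *Pnpla1*-/- pool. *Xist*, on the X chromosome, was higher by 1.12 in the *Pnpla1*-/- pool, and *Ddx3y* and *Eif2s3y*, on the Y chromosome, were at -2.19, so the pools also differed in the RNA of sex-linked genes, and the part of this in the *Sprr* values was not tested.

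Small proline-rich proteins are precursors of the cornified envelope, the protein shell that replaces the plasma membrane of keratinocytes as they cornify. Transglutaminases cross-link them, through glutamine and lysine residues of their end domains, to loricrin, involucrin and other envelope proteins, and their central proline-rich repeats make them flexible bridges. On mouse chromosome 3 their genes sit among others that act late in keratinocyte differentiation, in a cluster named the epidermal differentiation complex. *Sprr1a* and *Sprr1b* encode the SPRR1 proteins, which are known to be induced in stressed and injured squamous epithelia. *Sprr3* is best known from oral and oesophageal epithelium, and the human counterpart of *Sprr4* is known to be induced in skin by ultraviolet light.

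The 4 probes, given by their first 30 of 60 bases because all values below rest on 1 probe per gene, did not resemble each other.
Sprr1a: gctcctgagcctcttaacattgcccaaagt
Sprr1b: gagaccaagttacaagtgattgggttcttt
Sprr3: acttctgagccaagctcagaaccatgctct
Sprr4: gaggagcacaactaacccagctcaagagaa
On the mm9 build, as the scanner files give it, the probes lay on the minus strand of chromosome 3 at chr3:92287955-92288014 for *Sprr1a* (NM_009264), chr3:92240731-92240790 for *Sprr1b* (NM_009265), chr3:92260903-92260962 for *Sprr3* (NM_011478) and chr3:92304195-92304254 for *Sprr4* (NM_173070). No mm9 annotation was used, so their place relative to exons and untranslated regions is not stated. The longest run of bases that any pair of the 4 whole probes shared was 8, between *Sprr1a* and *Sprr3*, and *Sprr1a* and *Sprr1b* shared 5. Against the 13 probes of other *Sprr* genes on the array, the longest shared runs were 8 bases for *Sprr1a*, 7 for *Sprr1b* and *Sprr4*, and 6 for *Sprr3*. The *Sprr* genes are nevertheless close relatives, and hybridization between family members was not tested.

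The 250 bases before the annotated starts of *Sprr1a*, *Sprr1b* and *Sprr3* are shown because AP-1 sites in proximal promoters are the best known control elements of SPRR1 genes. They were taken from RefSeq on GRCm38.p6, all on the minus strand of chromosome 3 and 5′ to 3′, at chr3:92485882-92486131, chr3:92438780-92439029 and chr3:92458721-92458970. Capitals mark matches to the AP-1 motif TGANTCA, searched on both strands, and to the TATA motif TATAAA, searched on the gene's strand.
Sprr1a: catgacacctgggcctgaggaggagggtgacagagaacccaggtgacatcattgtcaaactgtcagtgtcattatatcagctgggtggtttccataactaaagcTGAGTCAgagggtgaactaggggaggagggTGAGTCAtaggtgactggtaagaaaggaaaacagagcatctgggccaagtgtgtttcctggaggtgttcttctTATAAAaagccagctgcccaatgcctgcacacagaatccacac
Sprr1b: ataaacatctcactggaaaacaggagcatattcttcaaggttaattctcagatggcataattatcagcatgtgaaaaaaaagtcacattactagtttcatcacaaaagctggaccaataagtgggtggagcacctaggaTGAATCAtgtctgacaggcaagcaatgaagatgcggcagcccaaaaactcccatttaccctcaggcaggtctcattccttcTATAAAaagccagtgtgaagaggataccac
Sprr3: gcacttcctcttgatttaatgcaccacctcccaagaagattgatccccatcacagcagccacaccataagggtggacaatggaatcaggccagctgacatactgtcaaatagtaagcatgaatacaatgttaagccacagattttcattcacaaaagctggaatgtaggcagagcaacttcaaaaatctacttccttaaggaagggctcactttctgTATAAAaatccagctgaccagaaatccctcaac
*Sprr1a* held 2 AP-1 matches, beginning 146 and 116 bases before the start, and *Sprr1b* held 1, at 111 bases. No TGANTCA was in the window of *Sprr3*. A TATAAA began 43, 30 and 33 bases before the starts of *Sprr1a*, *Sprr1b* and *Sprr3*, and no AP-1 match overlapped a TATAAA. Among 32851 promoter windows of the same length, 6.75% held at least 1 TGANTCA, 0.338% held 2 or more, and 7.59% held TATAAA. The short ETS core GGAA was in all 4 windows, with 3 matches for *Sprr1a*, 2 for *Sprr1b*, 5 for *Sprr3* and 4 for *Sprr4* on either strand, but 93.4% of all windows held it. *Sprr1a* and *Sprr1b* shared a run of 13 bases, TATAAAAAGCCAG, across the TATA match, and *Sprr1b* and *Sprr3* shared 14 bases, TCACAAAAGCTGGA. The *Sprr4* window held neither TGANTCA nor TATAAA. It is not printed because the RefSeq model of this gene spans only 231 bases and may begin at its coding part. Of 10 *Sprr2* genes with a window, 7 held TGANTCA and 7 held TATAAA. These matches are descriptions of letters and were not tested as binding sites.

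*Sprr1a* and *Sprr1b* were both higher in *Pnpla1*-/- skin, *Sprr4* was lower by less than 2-fold after scaling, and *Sprr3* was not measurable in either pool. Of the 3 measurable genes, 2 were at least 2-fold higher, against 6.68% of the 22373 genes of the array that had a difference or a bound, and 0 were lower by that much, against 3.04%. In either direction 9.73% of those genes passed 2-fold. The balance of these shares turned with the scaling, to 4.46% higher and 6.38% lower without scaling and to 3.72% higher and 9.85% lower with spike-in centring, and in both of these settings *Sprr4* was also at least 2-fold lower. Intensities below are background-subtracted as deposited, with the error that the scanner software gives for the spot. A difference is log2 of the *Pnpla1*-/- value minus log2 of the *Pnpla1*+/+ value, once each has been divided by its array's 75th percentile, 2108 for *Pnpla1*+/+ and 1734 for *Pnpla1*-/-. Because the tissue was measured in bulk, fewer cells of a type and less RNA per cell cannot be told apart.

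The *Sprr1b* spot had 5644 ± 564 units of intensity in the *Pnpla1*+/+ pool and 101699 ± 10170 in the *Pnpla1*-/- pool. The *Pnpla1*-/- pool was far above the *Pnpla1*+/+ pool, and the spot was bright on both arrays. The log2 difference was 4.45, with an error of 0.20 carried over from the spots, which is 21.9-fold. Before scaling, mean pixel intensities of 6076 and 110286 gave 18.2-fold once the local background was subtracted.

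The *Sprr1a* spot had an intensity of 8362 ± 836 in the *Pnpla1*+/+ pool and of 31300 ± 3130 in the *Pnpla1*-/- pool, again with the *Pnpla1*-/- pool above the *Pnpla1*+/+ pool. The log2 difference was 2.19, with an error of 0.20, which is 4.55-fold. The mean pixel intensities were 9963 and 37233, which gave 3.74-fold in the same way. The difference was 2.27 larger for *Sprr1b* than for *Sprr1a* on the log2 scale, with an error of 0.29, so the fold of *Sprr1b* was 4.81 times that of *Sprr1a*. A single scaling factor per array cancels in this gap.

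*Sprr4* was dim. Its intensity was 324 ± 33.0 in the *Pnpla1*+/+ pool and 141 ± 15.2 in the *Pnpla1*-/- pool, and the spot was well above background on both arrays. The log2 difference was -0.92, with an error of 0.21, so *Sprr4* was 1.89-fold lower in *Pnpla1*-/- skin and did not reach the 2-fold threshold. Before scaling it was 2.30-fold lower, and 2.04-fold lower from mean pixel intensities less the local background, both past 2-fold. The gap between *Sprr1a* and *Sprr4* was 3.11 on the log2 scale, with an error of 0.30, although the *Sprr4* probe lies only 16.2 kb from that of *Sprr1a*.

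*Sprr3* had intensities of 8.36 ± 5.69 in the *Pnpla1*+/+ pool and 11.8 ± 5.26 in the *Pnpla1*-/- pool. The lowest intensity called well above background was 23.9 for *Pnpla1*+/+ and 21.7 for *Pnpla1*-/- skin, so *Sprr3* lay under that level in both pools and no fold is given. The median of the 153 negative-control spots was 5.81 and 5.20. Without the background filter its log2 difference would be 0.78 with an error of 1.17.

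**Figure D1:**
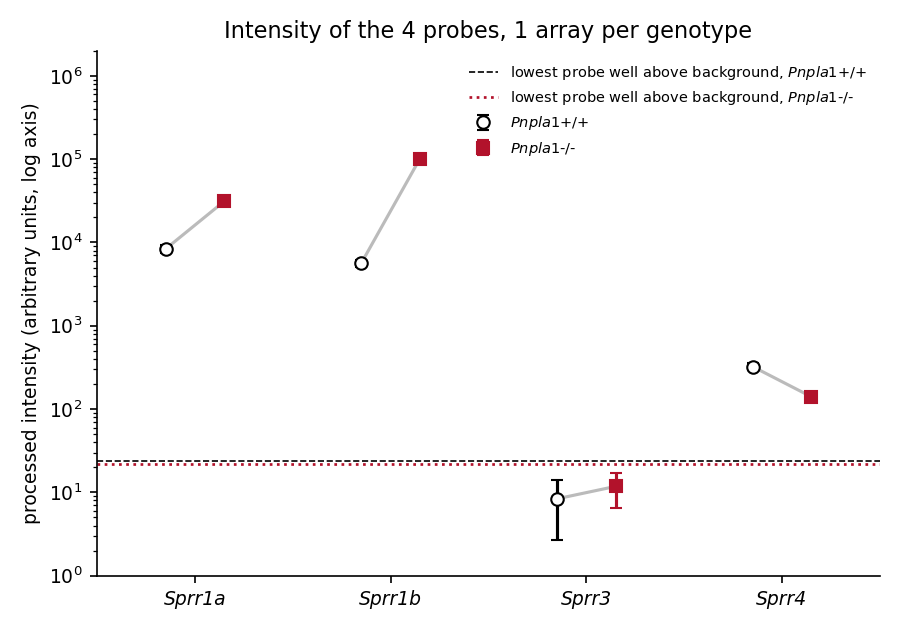
Intensity (log axis, as deposited, before scaling) of the probes of *Sprr1a*, *Sprr1b*, *Sprr3* and *Sprr4* in the *Pnpla1*+/+ and *Pnpla1*-/- pools, 1 array each, with the scanner software's error as bars. *Sprr1b* goes from 5644 to 101699 and *Sprr1a* from 8362 to 31300, *Sprr4* goes from 324 to 141, and *Sprr3* stays under the lowest intensity well above background in both pools.

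The technical error of such differences was read from 385 probes spotted at least 8 times on each array. The median SD of a difference between single spots was 0.071 for 136 probes with mean intensities from 1000 to 10000 and 0.063 for 34 probes over 10000. For 109 probes from 100 to 1000, the range in which *Sprr4* lies, it was 0.092, and 95% of those probes had an SD under 0.195. The differences of *Sprr1a*, *Sprr1b* and *Sprr4* were therefore larger than the spread between repeated spots. This spread leaves out labelling, hybridization and the variation between mice. For 106 probes under 100 the median SD was 0.417, and the *Sprr3* value without the filter falls in that range.

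Among 20678 genes well above background on both arrays, *Sprr1b* had the rank 55 from the highest difference and *Sprr1a* the rank 278, and 1168 of these genes were at least 2-fold higher. *Sprr4* had the rank 650 from the lowest. The genes nearest to *Sprr1b* in this order were *Jaml* at 4.51, *Sirpb1a* at 4.54, *Defb14* at 4.44 and 9530059O14Rik at 4.41. *Jaml* encodes an adhesion molecule of leukocytes, *Sirpb1a* a signal-regulatory receptor of myeloid cells and *Defb14* an antimicrobial beta-defensin of epithelia. The genes nearest to *Sprr1a* were *Slc28a3*, a nucleoside transporter, and *Gpr132*, a G protein-coupled receptor, both at 2.19, and *Tnfsf15*, a TNF family cytokine, and *Calcb*, a calcitonin-related peptide, both at 2.18. Those nearest to *Sprr4* were *Gpx7*, *Flrt1*, *Hspa12a* and *Tcam1*, all at -0.92. Likeness here is the gap in 1 log2 difference over 2 arrays, so it only locates the genes in the order.

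**Figure D2:**
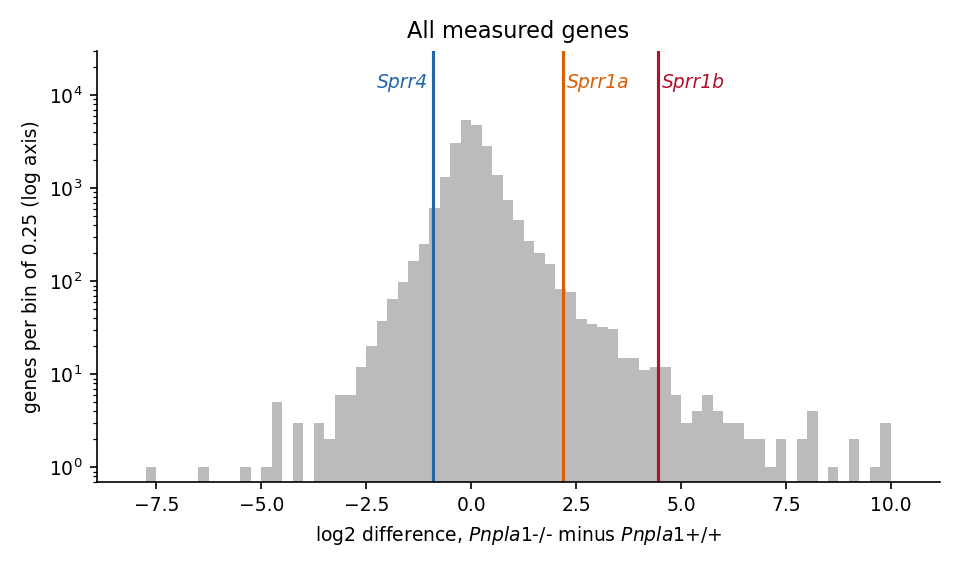
Number of genes (log axis) per bin of 0.25 in the log2 difference, *Pnpla1*-/- minus *Pnpla1*+/+, over the 22373 genes with a difference or a bound, with lines at *Sprr4* (-0.92), *Sprr1a* (2.19) and *Sprr1b* (4.45). *Sprr1b* lies in the thin upper tail, and *Sprr4* lies on the lower flank inside the 2-fold threshold.

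Of 12 other settings of scaling, background correction, probe choice and filtering, 4 on probe choice and filters left the values as they were, because each of these genes has 1 probe, without outlier flags and well above background on both arrays. In the other 8 settings *Sprr1a* and *Sprr1b* were both past 2-fold. Those that use another scaling factor per array move every gene by the same constant. The deposited ratios are nearly the main setting again, with a shift of 0.0006 in the median over all genes. The gap between *Sprr1a* and *Sprr1b* could move only with quantile normalization, cyclic loess or normexp, and was 2.25 to 2.28 in these 3. *Sprr1b* ranged from 4.02 to 4.45 and *Sprr1a* from 1.75 to 2.19. *Sprr4* was below 0 in these 8 settings, from -1.35 to -0.62, and was at least 2-fold lower in 2 of them, at -1.20 without scaling and -1.35 with centring on the spike-in RNA.

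**Figure D3:**
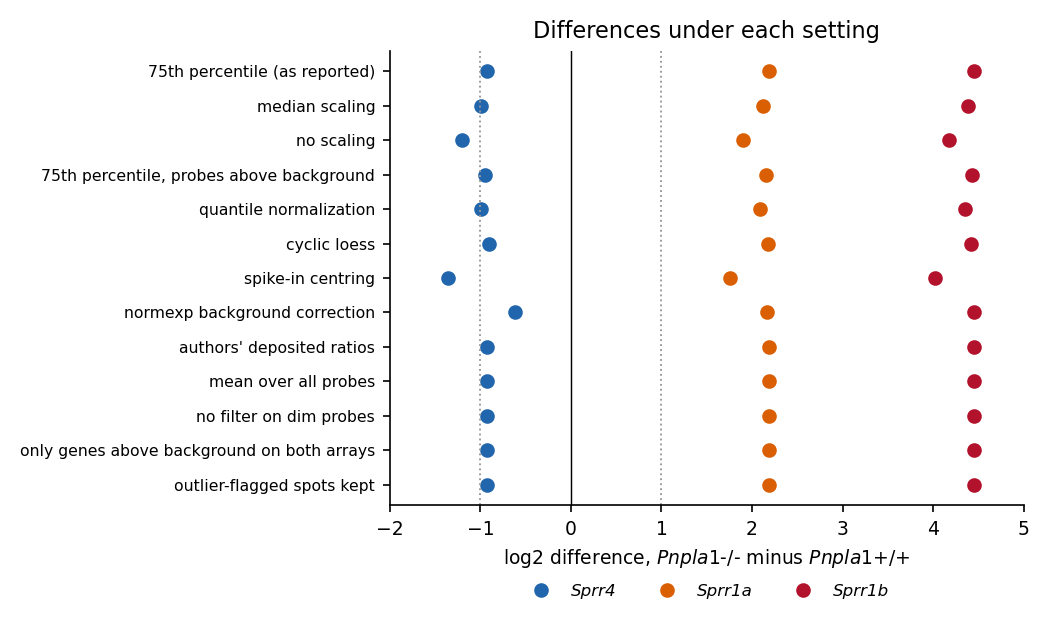
Log2 difference, *Pnpla1*-/- minus *Pnpla1*+/+, of *Sprr1a*, *Sprr1b* and *Sprr4* under the main processing and 12 other settings, 4 of which leave the values as they were, with dotted lines at 2-fold. *Sprr1b* stays between 4.02 and 4.45 and *Sprr1a* between 1.75 and 2.19, whereas *Sprr4* crosses the 2-fold line without scaling and with spike-in centring.

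The probes of the 4 genes span 63.5 kb, in the order *Sprr1b*, *Sprr3*, *Sprr1a*, *Sprr4*, and their neighbours included genes that were higher, level and lower. Within 300 kb lay 29 other entries of the array, of which 27 had a difference or a bound, 9 were higher by at least 2-fold and 10 were lower by at least 2-fold. Before *Sprr1b*, 7 *Sprr2* genes were higher by 4.75 to 9.98. *Sprr2f* was at 9.98, *Sprr2i* at 9.83, *Sprr2j-ps* at 9.18, *Sprr2e* at 9.15, *Sprr2g* at 8.17, *Sprr2d* at 6.02 and *Sprr2h* at 4.75. *Sprr2k*, beside *Sprr1b*, was not well above background in *Pnpla1*+/+ skin, with 22.7, and reached 2164 in *Pnpla1*-/- skin, at least 109-fold higher. The *Sprr2a2* entry gave 0.19 from its brightest probe, which went from 139296 to 130335, but its other probes gave 4.01 and at least 5.86, so the size of its difference is uncertain. The *Sprr2* genes are closely related in sequence, and their probes may share target RNA. A transcript without a gene name, NAP061720-1, lies between *Sprr3* and *Sprr1a*, 10.8 kb from the *Sprr1a* probe. It was bright and nearly level, going from 159702 to 147127, which is 0.16 after scaling. AK178559, between *Sprr2j-ps* and *Sprr2k*, also differed by only 0.08, and a further unnamed entry near *Sprr2a2* by 0.15. *Sprr2a1* and another unnamed entry did not pass the background flag in either pool. The unnamed entry read 10.4 in the *Pnpla1*+/+ pool and 27.1 in the *Pnpla1*-/- pool.

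Beyond *Sprr4*, the first neighbour was 2310046K23Rik, at 48.6 kb from the *Sprr1a* probe, whose intensity went from 1310 to 59051 between the *Pnpla1*+/+ and the *Pnpla1*-/- pool. Its log2 difference of 5.78 was above that of *Sprr1b*, on the far side of a gene that was lower. *Ivl*, which encodes involucrin, an early scaffold protein of the envelope, went from 4457 to 3711. Its difference after scaling was 0.02, and its other probe gave 0.00. *Smcp*, a sperm mitochondrial protein gene, was not well above background in *Pnpla1*-/- skin, and 2210017I01Rik was at 0.17. Of the *Lce1* genes that followed, whose products join the envelope late, *Lce1c* was the lowest at -2.41 and *Lce1g* the highest at -0.84. *Lce1a1*, *Lce1a2*, *Lce1b*, *Lce1d*, *Lce1e*, *Lce1f*, *Lce1h* and *Lce1i* lay between -1.83 and -1.09. The unnamed ENSMUST00000107304 at the edge was at -1.62. Neighbours on the same chromosome are not independent measurements.

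**Figure D4:**
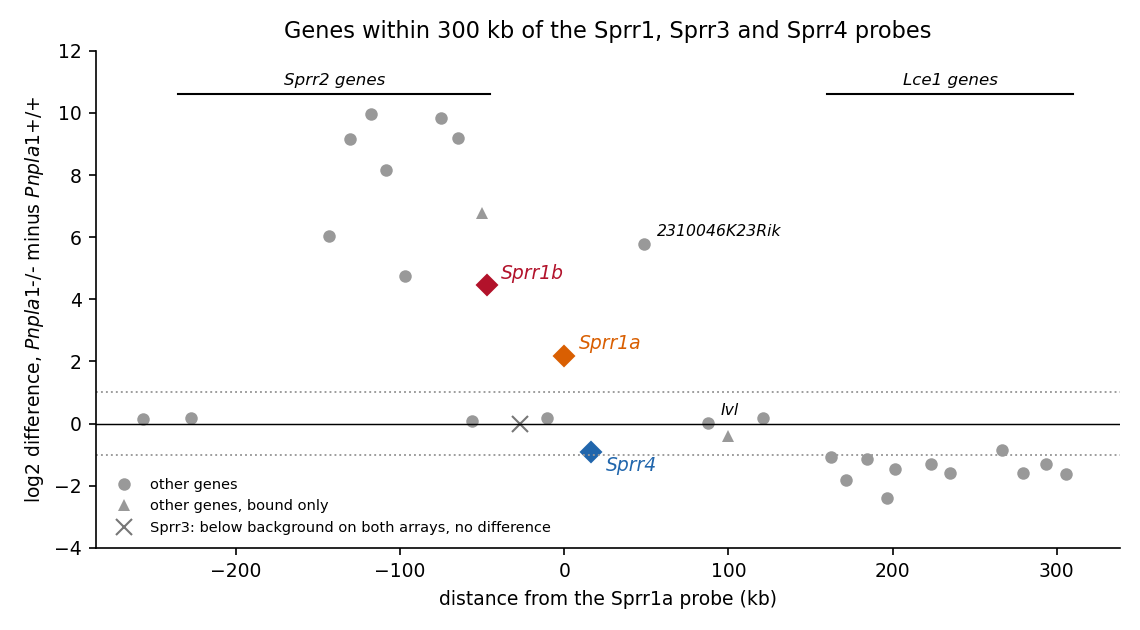
Log2 difference, *Pnpla1*-/- minus *Pnpla1*+/+, of each gene within 300 kb against the distance of its probe from that of *Sprr1a* in kb, with *Sprr1a*, *Sprr1b* and *Sprr4* in colour. *Sprr2* genes on the left reach 9.98, *Sprr4* (-0.92) lies 16.2 kb from *Sprr1a* (2.19), and the *Lce1* genes on the right lie between -2.41 and -0.84. A cross at 0 only marks where *Sprr3*, which has no difference, lies.

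The *Sprr1* genes were next set beside lists of genes that share their role. Of the *Sprr2* genes 9 of 12 had a value and 8 were at least 2-fold higher, with a median of 8.17 that ranged from 7.47, with outlier-flagged spots kept, to 8.66, with genes above background on both arrays alone, so that *Sprr1a* and *Sprr1b* lay below most of that family in size. Over all genes the median was 0.00. The other cornified envelope precursors did not move together. Of 21 with a value, 3 passed 2-fold upwards and 3 downwards, and the median of 0.02 changed sign in 7 of 12 settings. *Rptn*, which encodes the S100-fused protein repetin, went from 603 to 19047, a difference of 5.26. *Cnfn*, which encodes cornifelin, was at 2.35, close to *Sprr1a*. *Flg2*, a filaggrin-like protein gene, had the lowest difference of the list, -6.41, and *Tchhl1* followed at -1.27.

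Transglutaminases, the enzymes that cross-link SPRR proteins, were higher in 3 of 4 cases by at least 2-fold, with a median of 1.56, or 1.17 with the mean over all probes of each gene, where 3 of 4 also passed. *Tgm1*, the membrane-bound enzyme of envelope assembly, went from 2942 to 8764 and was higher by 1.86. *Tgm5*, the other epidermal enzyme of the list that had a single probe, was higher by 1.27. *Tgm3*, which cross-links SPRR proteins into small oligomers, gave 2.12 from its brightest probe and 0.03 from the other, so the size of its difference rests on the probe. *Tgm2*, a widely expressed tissue enzyme, was at 0.44.

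Of 16 transcription factors known to act at SPRR genes or in their induction, 7 were higher and 2 lower by at least 2-fold, and the median was 0.31. The median fell to -0.12 with spike-in centring. *Ehf*, an epithelial ETS factor, went from 528 to 11715 and was higher by 4.75, with 4.61 from its other probe. *Elf3*, the ETS factor for which control of SPRR genes is best known, went from 115 to 1001 and was higher by 3.40. At the lower end were the AP-1 subunit genes *Fosb* at -1.66 and *Fos* at -1.01. AP-1 subunits were on both sides, since *Fosl1* was at 2.01 and *Junb* at 1.27, values named after they were seen. The brighter subunit genes stayed under 2-fold, with *Jun* at 0.06, *Jund* at -0.36 and *Fosl2* at -0.01. The other probe of *Fosl2* gave 0.85.

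Keratins of wounded or stressed epidermis were higher alongside the *Sprr1* genes, with a median of 5.54 and 3 of 4 past 2-fold. *Krt6b* was higher by 7.20, *Krt6a* by 6.96 and *Krt16* by 4.13, and *Krt17* was at 0.65, below 2-fold. *Krt16* went from 21192 to 304252, a difference near that of *Sprr1b*. The basal keratinocyte list, with a median of 0.14 and 1 of 7 genes higher and 1 lower by at least 2-fold, had *Krt14* at 1.35 and *Krt15* at -1.67. The spinous list, with a median of 0.24, had 1 of 6 higher, *Dsc1* at 1.20, and its defining keratins *Krt1* and *Krt10* were at 0.10 and 0.20. *Krt5*, *Krt14*, *Krt1* and *Krt10* were all bright in both pools, with intensities from 53789 to 277989, so the labelled tissue had its keratinocyte markers.

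Markers of other cells and tissues were read beside these values. The oral and oesophageal list was taken because *Sprr3* is known from those epithelia. *Krt4* was 32.4 in *Pnpla1*+/+ skin and not well above background in *Pnpla1*-/- skin, and *Krt76* did not pass the background flag on either array. *Crnn* went from 507 to 246, a difference of -0.76, and *Mal* from 1191 to 1051, a difference of 0.10. *Krt13*, which had the brightest probe of this list, went from 15516 to 28402 on its brightest probe, a difference of 1.15, while its other probe gave -2.04, so its direction is uncertain. Over the 4 genes with a value, only *Krt13* was past 2-fold and the median was -0.01. With the mean over all probes of each gene, 0 were past 2-fold in either direction and the median was -0.28. The scaled signal summed over the list was 8.19 in *Pnpla1*+/+ and 17.1 in *Pnpla1*-/- skin, of which the brightest *Krt13* probe gave 7.36 and 16.4, and without *Krt13* it was 0.827 and 0.765.

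Of 10 leukocyte markers, 5 were at least 2-fold higher and 0 lower, with a median of 1.04. Each passed the background flag in at least 1 pool. With the mean over all probes of each gene, 6 were at least 2-fold higher and the median was 1.23. With spike-in centring the median was 0.61. *Cxcr2*, a chemokine receptor of neutrophils, was not well above background in *Pnpla1*+/+ skin, with 16.0, and reached 1177 in *Pnpla1*-/- skin, at least 59.3-fold higher. *Ly6g*, another neutrophil marker, went from 524 to 576, a difference of 0.42. *Itgax*, an integrin of myeloid cells, was higher by 2.82. The T cell marker *Cd3e* was at 0.13. *Itgam*, which had the brightest probe of the list, gave -0.03 from that probe and 1.14 and 2.84 from the others. The summed scaled signal of the list went from 9.03 to 13.3, and without *Itgam* from 3.41 to 7.79. Of 10 hair follicle markers, 6 were at least 2-fold lower and 0 higher, with a median of -1.05. *Krt35* had the lowest difference, -1.33, followed by *Lhx2* at -1.28. The highest were *Tchh* at -0.48 and *Msx2* at -0.71, and *Krt71*, which had the brightest probe, was at -0.82. Their summed scaled signal went from 105 to 55.1, or from 64.8 to 32.5 without *Krt71*, and the difference of *Sprr4*, -0.92, was close to their median. The part of leukocytes or hair follicles in the *Sprr1a*, *Sprr1b* and *Sprr4* differences was not tested. No gene of the fibroblast, skeletal muscle or adipocyte lists, with 6, 6 and 5 genes, was past 2-fold, and their medians were -0.07, 0.06 and 0.06. The brightest genes of these lists were *Col1a2*, *Myh8* and *Fabp4*. They read 275482, 146871 and 89342 in the *Pnpla1*+/+ pool and 201776, 146375 and 78651 in the *Pnpla1*-/- pool. Both pools therefore held RNA of fibroblast, muscle and fat markers beside that of keratinocytes, and were not epidermis alone.

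**Figure D5:**
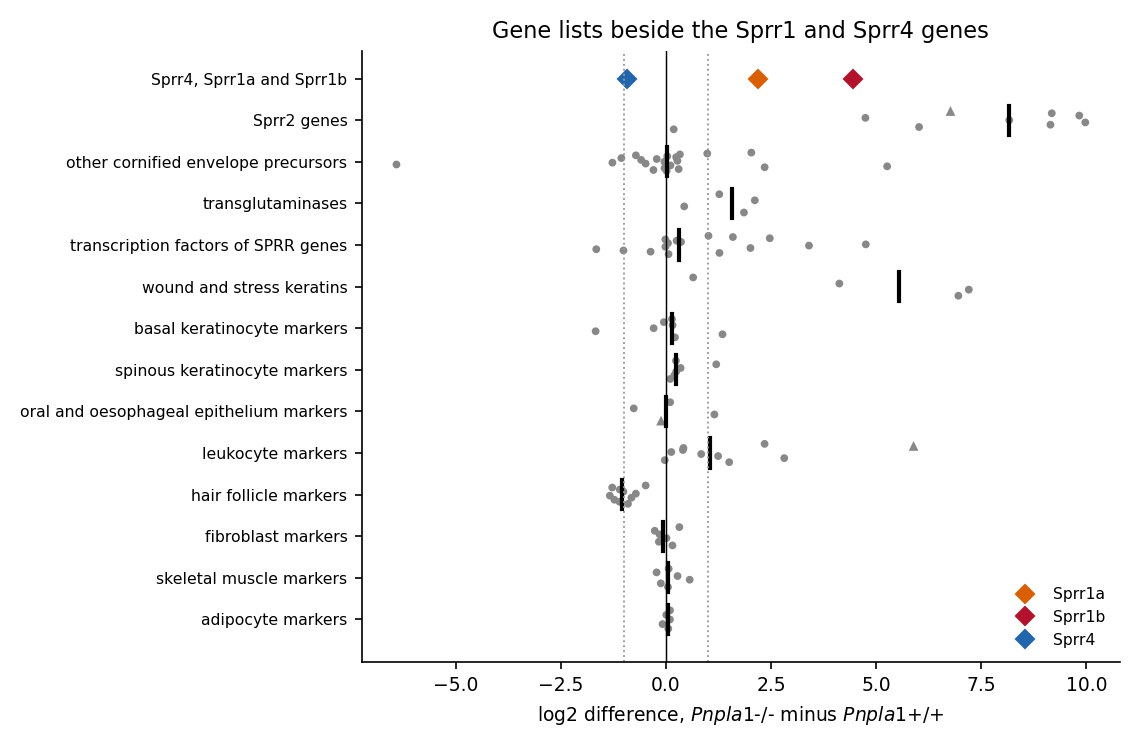
Log2 difference, *Pnpla1*-/- minus *Pnpla1*+/+, of the genes of 13 lists (grey points, triangles where the value is a bound, black bars for the median of each list), with *Sprr4*, *Sprr1a* and *Sprr1b* as diamonds and dotted lines at 2-fold. *Sprr3* has no point because it did not pass the background flag in either pool. The *Sprr2* (median 8.17) and wound keratin (median 5.54) lists lie to the right, the hair follicle list (median -1.05) lies to the left, and the other envelope precursors spread over both sides of 0.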

How the data were processed

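Pooled skin RNA was labelled with Cy3 and hybridized to Agilent 4x44K v2 mouse arrays. The authors processed the scans with Feature Extraction 11.5.1.1 and deposited a linear intensity per spot after background subtraction and detrending, with flags and an error from the software's error model. A second deposited table gives the ratio of that intensity to a factor per array. The study states global normalization. Each array's group was taken from its sample labels.

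Spots with an outlier flag (138 in *Pnpla1*+/+ and 82 in *Pnpla1*-/-) were left out, each intensity was taken relative to its array's 75th percentile of non-control spots, on the log2 scale, and repeated spots were averaged. A gene was represented by its brightest probe. Genes well above background on both arrays (20678) have a difference, genes on 1 array (1711) a bound where it could be set (1695), and 7744 have no value. A bound is an "at least" value, for which the dim pool takes its own value or, if higher, the lowest value that passed the background flag there. Error bars of differences carry the software's spot errors over to the log2 scale. Probe names were updated through RefSeq genes of GRCm38.p6 by accession (27597 probes), symbol (3488) or older symbol (393), and 7951 probes kept the name in the files. Promoter windows and motif searches used RefSeq sequences of that build, and coordinates of probes are those of the files on mm9.

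With 1 array per genotype, 2-fold was the threshold and no test was made. Precision is limited by having 2 arrays. The members and the 13 lists, which share 2 genes, were chosen with earlier results of these data known. Named from each list were the 2 genes with the highest and the 2 with the lowest difference (all genes of lists with up to 5), defining markers and bounds. The AP-1 subunits of the transcription factor list were named too. All named genes within 300 kb of a member probe were given, as were the 2 genes next above and next below each member in the order of differences. For basal, spinous, fibroblast, muscle and adipocyte lists only the values bearing on the tissue check are printed. The value of 1 marker gene is not reported here. *Flg* and *Sprr2a3* were not matched to a probe by name and were not analysed here, and the *Sprr2b* spot carried an outlier flag. Alternatives were other scalings, limma 3.58.1 quantile, cyclic loess and normexp (offset 50) in R 4.3.3, spike-in centring, the deposited ratios, other probe, filter and flag rules, and thresholds of 1.5-fold and 3-fold. The remaining computation used Python 3.11.15, numpy 2.4.6 and pandas 2.3.3, and was tested on simulated data.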

Additional observations from a re-analysis of the deposited data

How the results depend on the processing

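Scaling moved the sizes most. Without scaling the log2 differences were 1.90 for *Sprr1a*, 4.17 for *Sprr1b* and -1.20 for *Sprr4*, and with centring on 8 E1A spike-in probes they were 1.75, 4.02 and -1.35. Quantile normalization gave 2.09 for *Sprr1a* and 4.35 for *Sprr1b*, and normexp background correction gave -0.62 for *Sprr4*. In the other settings these 3 genes moved by less than 0.092, the median technical SD over all 385 repeated probes. Median scaling, with 2.12 for *Sprr1a* and 4.38 for *Sprr1b*, moved both by more than the SD of 0.063 for probes over 10000. The median over all genes shifted by -0.28 without scaling, by -0.44 with spike-in centring and by 0.10 with no filter on dim probes.

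The percentages of genes at least 2-fold higher and lower were 6.68% and 3.04%, or 1495 and 681 genes. They became 3.72% and 9.85% (824 and 2182 genes) with spike-in centring, 4.34% and 1.45% (959 and 321) with normexp, 4.46% and 6.38% (995 and 1424) without scaling, and 10.1% and 3.67% of 30133 genes (3041 higher) with no filter. At 1.5-fold they were 13.8% and 9.35% (3077 and 2092) and at 3-fold 3.04% and 1.02% (680 and 228). The share of higher genes among those past 2-fold was 68.7% in the main setting, 41.1% without scaling, 27.4% with spike-in centring and 58.8% with quantile normalization. The medians of the adipocyte and skeletal muscle lists changed sign in 5 of 12 settings each, that of the basal list in 4, those of the spinous and oral lists in 2 each and that of the transcription factors in 1. The medians of the *Sprr2*, transglutaminase, wound keratin, leukocyte, hair follicle and fibroblast lists kept their sign in 12. The cause of these shifts was not tested. The slide could not be fitted as a block, no replicate could be left out, and no paired analysis was possible because each genotype has 1 array. Signal over background limits *Sprr3*, which did not pass the background flag in either pool.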

Other observations

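*Ppard* and *Fabp5*, which encode a lipid-sensing nuclear receptor and a fatty acid-binding protein of keratinocytes, were measured on the same arrays. The intensity of *Ppard* went from 2960 to 5870 between the *Pnpla1*+/+ and *Pnpla1*-/- pools, which is 1.27 on the log2 scale after scaling, and that of *Fabp5* went from 202556 to 316530, which is 0.93. The *Fabp5* value in the *Pnpla1*-/- pool was the highest intensity on that array.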
